A study of Mus musculus with 4 samples.

Results

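Creatine handling in the mouse cortex was followed through 5 genes, taken from the deposited gene tables by symbol and found in all 4 libraries among 21933 genes. Slc6a8 encodes the creatine transporter (CrT), Gatm and Gamt encode the enzymes of creatine synthesis, and Ckb and Ckmt1 encode the creatine kinases of cytosol and mitochondria. The data were single-nucleus RNA sequencing counts from the right cerebral cortex of untreated male mice at postnatal day 100, with 2 Control libraries (CrT+/y, wild-type littermates) and 2 CrT-KO libraries (CrT-/y, hemizygous for a deletion of exons 5 to 7 of Slc6a8). Both groups had the C57Bl/6J background, each library came from 1 animal, and the deletion was carried by every cell of the CrT-KO animals. Counts are unique molecular identifiers (UMIs), each standing for 1 captured transcript molecule.

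Creatine buffers cellular energy: creatine kinases move a phosphate between ATP and creatine, and phosphocreatine returns it where ATP is consumed. Brain cells obtain creatine through the transporter or make it in steps, with the Gatm product (AGAT) forming guanidinoacetate from arginine and glycine and the Gamt product methylating it to creatine. When the transporter is lost, the brain becomes poor in creatine, an X-linked disorder in humans.

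The libraries held 8282 to 9295 nuclei and 51507483 to 65240843 UMIs. Of 35694 nuclei, 1213 were set aside as doublets, 2853 stayed unnamed and 31628 entered 7 populations named from marker genes, so each name stands for nuclei like that type. These were 15415 excitatory neurons, 7459 inhibitory neurons, 5063 oligodendrocytes, 2217 microglia, 722 oligodendrocyte precursors (OPCs), 499 astrocytes and 253 endothelial cells and pericytes. Of the excitatory neurons 12924 entered 9 subclasses and 2491 none, and of the inhibitory neurons 5735 entered 5 subclasses and 1724 none. The inhibitory neurons include 3 sub-clusters (1327 nuclei) led by genes of another class. Of these, 1 is led by Slc17a6, a glutamate transporter gene named here after its values were seen. The excitatory neurons include 1 such sub-cluster (612 nuclei). Endothelial cells and pericytes also include 1 (51 nuclei), and 83 of their 253 nuclei entered no subclass. The 2543 inhibitory nuclei with markers of striatal projection neurons (MSN-like) are not a cortical type, although the tissue was labelled cortex. Any pair of libraries shared 12 to 19 cell barcodes, at most 0.215% of a library. No library went against its label on Slc6a8.

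The deleted exons are shown because they define the genotype. Slc6a8 (ENSMUSG00000019558) lies on the + strand of the X chromosome at 73673150 to 73682502 (GRCm38), and its exons are numbered here along the 13-exon transcript of the GENCODE vM21 annotation. Exon 5 spans positions 73678636 to 73678770 (135 bases), exon 6 spans 73678866 to 73678969 (104 bases) and exon 7 spans 73679064 to 73679188 (125 bases). In the direction of transcription they read as follows.
Exon 5: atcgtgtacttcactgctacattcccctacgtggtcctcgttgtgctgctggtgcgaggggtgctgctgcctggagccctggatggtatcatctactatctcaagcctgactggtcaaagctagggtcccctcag
Exon 6: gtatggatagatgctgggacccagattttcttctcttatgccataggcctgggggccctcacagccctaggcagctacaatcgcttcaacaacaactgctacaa
Exon 7: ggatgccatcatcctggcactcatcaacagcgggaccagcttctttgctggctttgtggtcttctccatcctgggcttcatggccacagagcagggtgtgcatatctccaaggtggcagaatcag

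The 3 exons hold 364 bases, and the stretch from the first to the last of them covers 5.91% of the gene. The kit tags transcripts near their 3′ end, which lies 3314 bases beyond exon 7 on the genome, introns included. Most tags can therefore fall outside the deleted exons, and the remaining UMIs do not measure the deletion itself. Gatm lies on chromosome 2 at 122594467 to 122611303 (- strand), Gamt on chromosome 10 at 80258151 to 80261012 (- strand), Ckb on chromosome 12 at 111669361 to 111672338 (- strand) and Ckmt1 on chromosome 2 at 121357714 to 121363737 (+ strand). The annotation holds 2 processed pseudogenes of Ckb on chromosome 17, so Ckb counts are uncertain to the extent that reads were shared with them. Ckmt1 overlaps Strc on the other strand by 10 bases, and in excitatory neurons Strc had 5 to 14 UMIs per library against 460 to 558 of Ckmt1.

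Slc6a8, the transporter, was lower in both CrT-KO libraries in neurons and in oligodendrocytes. Over all named nuclei it had 329 and 300 UMIs in Control and 94 and 74 in CrT-KO. As CPM, the gene's UMIs divided by all UMIs of the same nuclei in a library and scaled to 1000000, these were 7.16 and 6.10 in Control and 1.68 and 1.67 in CrT-KO. The groups were far apart, and both CrT-KO values were nearly equal. The means were 6.63 ± 0.744 and 1.68 ± 0.00715 CPM (SD over 2 libraries each). The log2 fold change was -1.94 (SE 0.16), which left 26.1% of the Control level (edgeR quasi-likelihood test, Benjamini-Hochberg adjusted p 0.0119). Slc6a8 ranked first by p among the 14904 genes tested, of which 0.0201% passed the threshold of 0.1, and it was the only one of the 5 genes to pass.

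In excitatory neurons, the principal glutamatergic cells, Slc6a8 had 219 and 186 UMIs in Control and 61 and 48 in CrT-KO, or 6.86 and 5.65 against 1.58 and 1.54 CPM. The log2 fold change was -1.95 (SE 0.18, adjusted p 0.000466 by edgeR), and 1 of the 4 genes tested there passed against 0.295% of all genes. Without CrT-KO replicate 1 the log2 fold change was -1.96 with an adjusted p of 0.846 by edgeR, and without CrT-KO replicate 2 it was -1.95 with an adjusted p of 0.768. In inhibitory neurons, the GABAergic cells, the UMIs were 76 and 57 in Control and 24 and 11 in CrT-KO, or 6.76 and 4.64 against 1.71 and 1.09 CPM. The change was -1.95 on the log2 scale (SE 0.31, adjusted p 0.00241 by edgeR), and 1 of the 4 genes tested passed against 0.141% of all genes. Without the sub-clusters led by another class, an alternative added after the data were seen, the change was -2.01 (adjusted p 0.0117 by edgeR) in inhibitory and -1.94 (adjusted p 0.000696) in excitatory neurons. The level left was 25.8% of Control in excitatory and 25.9% in inhibitory neurons.

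In oligodendrocytes, the myelin-forming cells, Slc6a8 had 31 and 40 UMIs in Control and 8 and 11 in CrT-KO, or 19.2 and 18.2 against 4.75 and 6.27 CPM. The groups did not overlap, with a log2 fold change of -1.76 (SE 0.36, adjusted p 0.0666 by edgeR), and 1 of the 4 genes tested passed where 0.210% of all genes did. This call was lost with an adjusted p of 0.565 without Control replicate 2 and 0.151 without CrT-KO replicate 1, and it was lost in DESeq2 (adjusted p 1.00). Whether populations responded unequally was tested as an interaction of genotype and population. The difference was -0.0059 (SE 0.28, adjusted p 1.00 by edgeR) for inhibitory against excitatory neurons (0.135% of genes passed), 0.18 (SE 0.42, adjusted p 0.988) for oligodendrocytes against excitatory neurons (0.168%) and 0.15 (SE 0.47, adjusted p 0.987) for oligodendrocytes against inhibitory neurons (0.0400%). These intervals are wide, so a moderate difference between populations was not detectable at this depth.

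The other populations had too few Slc6a8 UMIs for a test. OPCs had 2 and 9 UMIs in Control and 0 and 1 in CrT-KO. Astrocytes had 1 and 4 in Control and 0 in both CrT-KO libraries, and a count of 0 in those nuclei allows up to 4.64 CPM (3 UMIs over the group, counting error only). Microglia had 0 and 3 UMIs in Control and 0 and 3 in CrT-KO, and endothelial cells and pericytes had 0 and 1 in Control and 1 and 0 in CrT-KO. The genotypes overlapped in these last 2 populations.

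**Figure D1:**
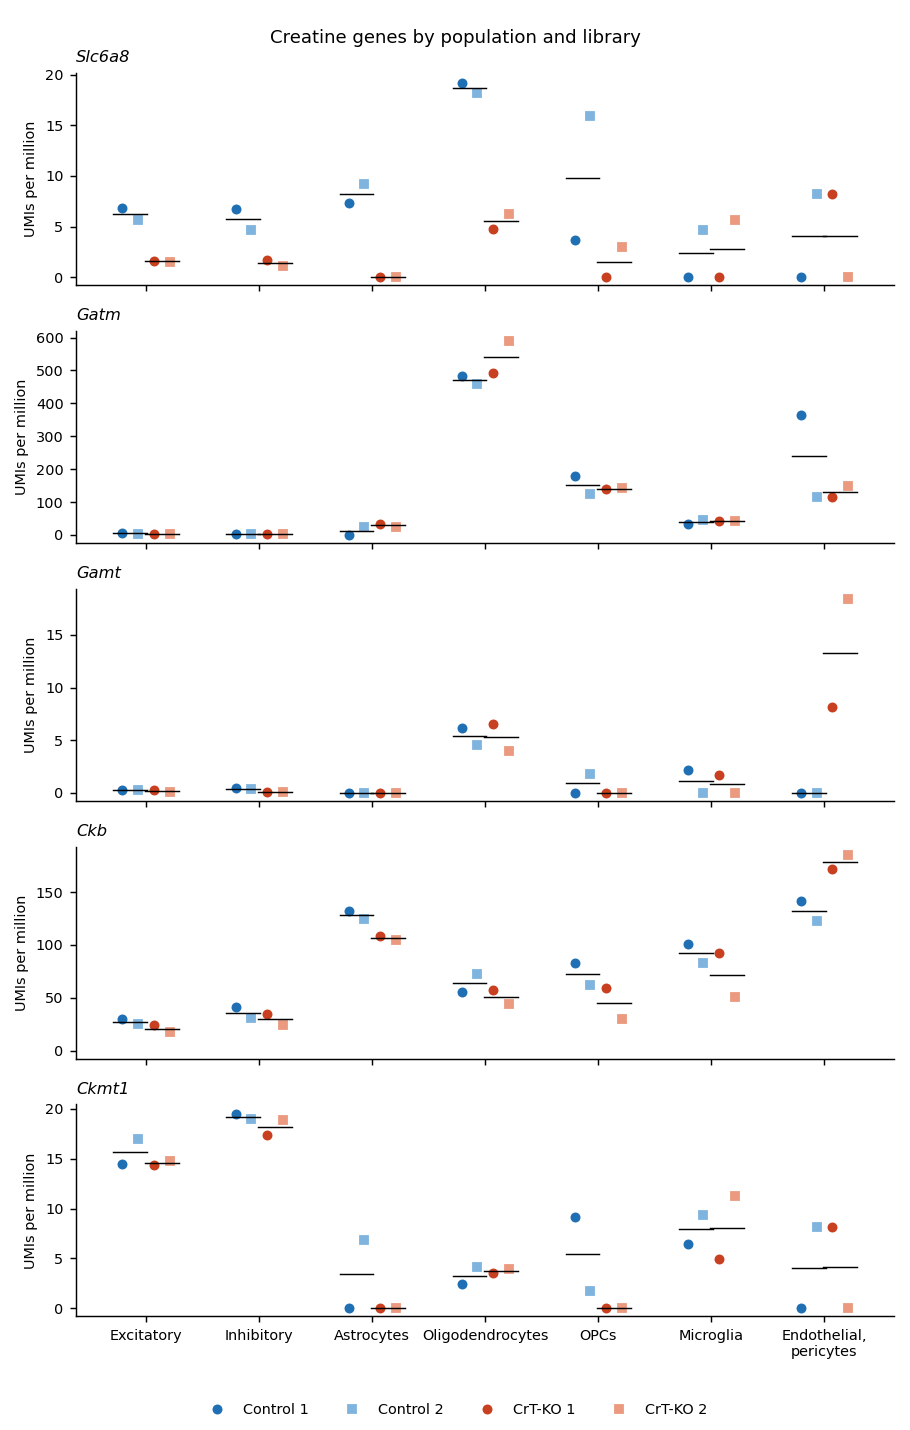
CPM of Slc6a8, Gatm, Gamt, Ckb and Ckmt1 (one panel each, linear axes) in the 7 populations, with 1 point per library and a line at each group's mean of 2. Slc6a8 is lower in both CrT-KO libraries in neurons and oligodendrocytes, Gatm stands out in oligodendrocytes, and Ckmt1 is highest in neurons.

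The order of the Control levels of Slc6a8 put oligodendrocytes first. Their mean was 18.7 ± 0.678 CPM, and both libraries lay above every other population. OPCs followed with 9.80 ± 8.65 and astrocytes with 8.25 ± 1.33, which overlapped each other and rest on 11 and 5 UMIs. Excitatory neurons had 6.26 ± 0.854 and inhibitory neurons 5.70 ± 1.50, with overlapping libraries. Endothelial cells and pericytes had 4.09 from 1 UMI and microglia 2.35 from 3 UMIs, each with a Control library at 0. By count, 64.4% of the 629 Control UMIs of Slc6a8 came from excitatory neurons, 21.1% from inhibitory neurons and 11.3% from oligodendrocytes, while these populations held 68.1%, 24.7% and 4.01% of all UMIs.

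**Figure D2:**
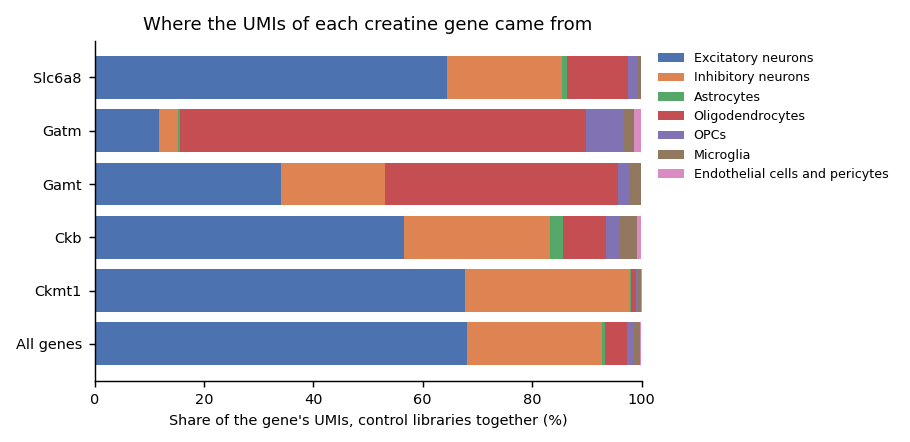
Share of each gene's UMIs (horizontal axis, percent, both Control libraries together) that came from each of the 7 populations, with all genes in the lowest bar. Oligodendrocytes hold 74.2% of the Gatm UMIs and 42.6% of the Gamt UMIs against 4.01% of all UMIs. Neurons hold nearly all of the Ckmt1 UMIs, but also 68.1% (excitatory) and 24.7% (inhibitory) of all UMIs.

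Slc6a8 also varied within the populations. Newly formed oligodendrocyte-like nuclei (184 nuclei) had 41.2 and 29.999 CPM in Control, from 6 and 4 UMIs, and the other oligodendrocytes had 17.0 and 17.5. These ranges did not overlap. The name newly formed rests on a marker score of 0.66 with 6 markers detected, and no marker of that list was among the leading genes. Enpp6, a marker of that list, instead led a sub-cluster of 538 nuclei counted with the other oligodendrocytes. Among neurons, L6b-like nuclei of the deepest cortical layer had 11.6 and 10.7, and L5 IT-like nuclei (layer 5 intratelencephalic neurons) had 8.84 and 8.34. L2/3-like nuclei of the upper layers had 5.66 and 5.66, below both of these subclasses in both libraries. L4/5-like nuclei spread from 3.67 to 8.69 between the Control libraries and overlapped most of their neighbours in the order.

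PV-like nuclei, the parvalbumin interneurons, had 32 and 15 Slc6a8 UMIs in Control and 10 and 4 in CrT-KO, or 13.4 and 6.54 against 3.99 and 1.93 CPM. In each Control library they lay above the other inhibitory subclasses, although 6.54 is within the range of VIP-like nuclei (6.79 and 2.63). The log2 fold change was -1.70 (SE 0.47, adjusted p 0.419 by edgeR), where 0.0423% of genes passed. The fitted change of the other named inhibitory subclasses together minus that of PV-like nuclei was -0.42 on the log2 scale (SE 0.63, adjusted p 0.984 by edgeR, with 0.0533% of genes past the threshold), a difference within its error.

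Genotype was compared in 22 divisions, which were the 14 neuron subclasses, newly formed and other oligodendrocytes, parenchymal microglia-like and border-associated macrophage-like nuclei, endothelial-like and pericyte-like nuclei, and the undivided astrocytes and OPCs. Both CrT-KO libraries had less Slc6a8 than both Control libraries in 18 of 22, among them all 14 neuron subclasses. The genotypes overlapped in 4, and in none were both CrT-KO libraries higher. Some of the 18 rest on few UMIs, such as L6 IT-like (5 in Control, 0 in CrT-KO) and LAMP5-like nuclei (5 and 1). The share of all genes without overlap in these divisions was not computed. Slc6a8 reached the count filter in 9 of 22. Of these 9, L2/3-like nuclei passed the threshold (53 and 54 UMIs against 18 and 9, log2 fold change -1.93, SE 0.32, adjusted p 0.00577 by edgeR), as did L5 IT-like nuclei (19 and 19 against 7 and 2, -2.17, SE 0.50, adjusted p 0.0911) and the other oligodendrocytes (25 and 36 against 8 and 11, -1.57, SE 0.38, adjusted p 0.0520). The shares of all genes past the threshold in these divisions were 0.564%, 0.264% and 0.619%, and over the 22 divisions they ran from 0% to 0.883%. In the other neuron subclasses the share was 0.172% in SST-like, 0% in VIP-like, 0.194% in LAMP5-like, 0.300% in MSN-like, 0.883% in L4/5-like, 0.186% in L5 ET-like, 0.0152% in L5/6 NP-like, 0.0665% in L6 CT-like, 0.0393% in L6b-like, 0.119% in L6 IT-like and 0% in subcortical-like nuclei. In glia it was 0.0201% in astrocytes, 0.0973% in OPCs, 0.0415% in microglia and 0.0282% in the parenchymal microglia-like nuclei among them. The fitted changes of the other 6 lay between -2.59 in L5 ET-like nuclei (14 and 10 UMIs against 3 and 2, SE 0.60, adjusted p 0.104 by edgeR) and -1.32 in L6 CT-like nuclei (36 and 28 against 12 and 14, SE 0.35, adjusted p 0.295). With another random seed of the clustering, the call in L5 IT-like nuclei was lost (-2.33, adjusted p 0.197 by edgeR).

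**Figure D3:**
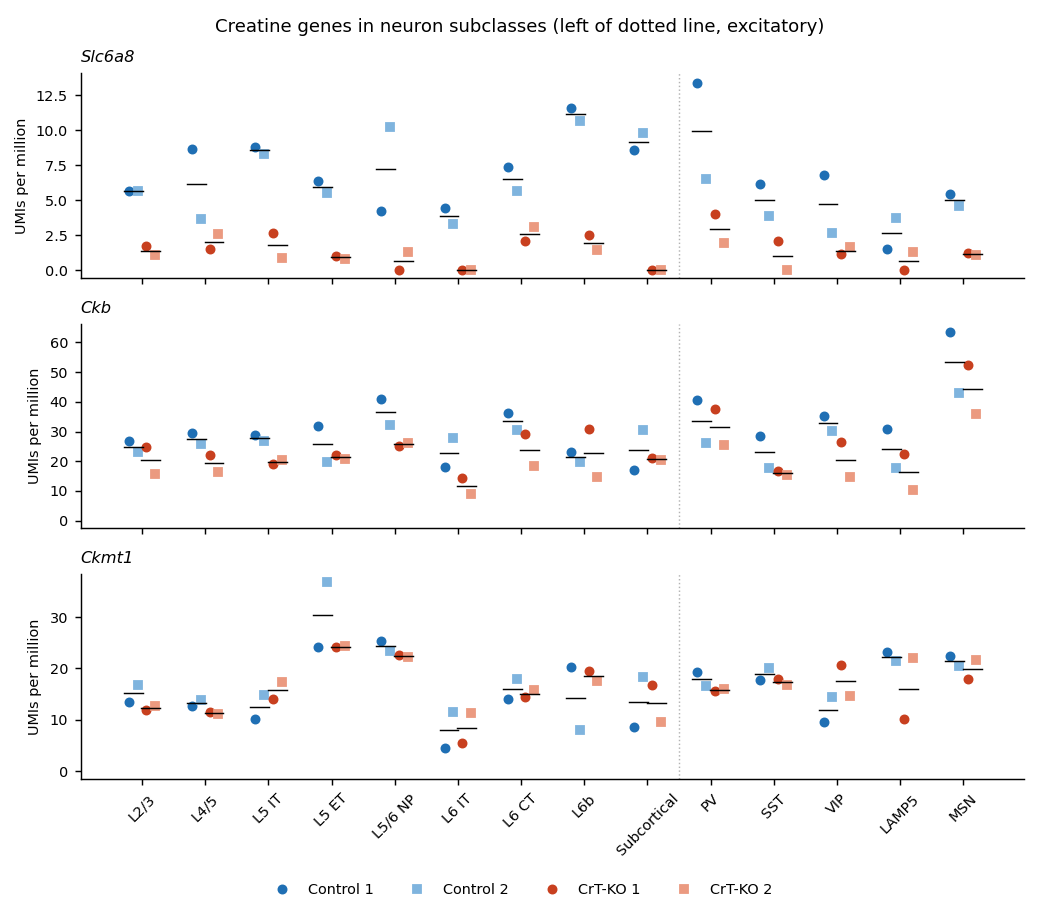
CPM of Slc6a8, Ckb and Ckmt1 in 14 neuron subclasses, excitatory to the left of the dotted line, with 1 point per library and a line at each group's mean of 2. Slc6a8 is lower in both CrT-KO libraries in all 14 subclasses shown, Ckb points of CrT-KO replicate 2 are mostly the lowest, and Ckmt1 is highest in L5 ET.

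The share of nuclei with a Slc6a8 UMI depends on depth, so each nucleus was thinned to 500 UMIs, which left out none. In oligodendrocytes 0.891% and 1.42% of Control nuclei then held a UMI against 0.181% and 0.221% of CrT-KO nuclei. In excitatory neurons the shares were 0.301% and 0.298% against 0.147% and 0.101%. Without thinning, the shares were 2.76% and 2.71% against 0.725% and 0.809% in oligodendrocytes (median 1332 UMIs per nucleus), and 5.80% and 4.87% against 1.49% and 1.21% in excitatory neurons (median 8097). Microglia, with hardly any Slc6a8, held a UMI in 0 of 464 and 3 of 600 thinned Control nuclei (median 976 UMIs), so the thinned share of neurons is near this background and no order is read from it. The difference was -0.955 percentage points in oligodendrocytes and -0.176 in excitatory neurons, with p = 0.33 in both by a two-sided exact permutation test, the smallest that the 6 assignments of 4 libraries allow.

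Gatm, the enzyme of the first step of synthesis, was concentrated in oligodendrocytes in both genotypes and passed the test in no population. Oligodendrocytes had 780 and 1007 UMIs in Control and 827 and 1036 in CrT-KO, or 483 and 459 against 491 and 590 CPM. Both CrT-KO libraries were above both Control libraries, but the log2 fold change was only 0.19 (SE 0.12, adjusted p 0.819 by edgeR). Over all named nuclei the values were 23.8 and 26.7 against 20.4 and 29.0 CPM, with a log2 fold change of 0.011 (SE 0.16, adjusted p 0.993 by edgeR) and overlapping genotypes.

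The Control level of Gatm fell in steps from 471 ± 16.9 CPM in oligodendrocytes to 152 ± 40.0 in OPCs, 38.1 ± 8.21 in microglia, 11.5 ± 16.3 in astrocytes, 4.35 ± 0.355 in excitatory and 3.60 ± 0.314 in inhibitory neurons. Astrocytes and excitatory neurons overlapped, and the other neighbours did not. Endothelial cells and pericytes had 364 and 115 from 18 and 14 UMIs, a spread that overlapped the OPCs. Within this population, pericyte-like nuclei had 362 and 264 CPM from 8 UMIs each. Endothelial-like nuclei had 330 and 151 CPM from 8 UMIs in all, a range that overlapped that of the pericyte-like nuclei. Newly formed oligodendrocyte-like nuclei had 281 and 269.99, below the other oligodendrocytes at 503 and 471, an order opposite to that of Slc6a8. Oligodendrocytes gave 74.2% of the 2407 Control UMIs of Gatm and 76.9% of the 2424 CrT-KO UMIs.

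After thinning to 500 UMIs, 21.4% and 19.5% of Control oligodendrocytes and 19.8% and 27.0% of CrT-KO oligodendrocytes held a Gatm UMI (46.3% and 46.1% against 49.5% and 51.6% without thinning). In excitatory neurons the thinned shares were 0.246% and 0.243% in Control. The part of free RNA in this low neuronal share was not tested.

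In the neuron subclasses Gatm was low throughout, with Control means from 1.70 CPM in LAMP5-like to 6.92 in L6 IT-like nuclei. Gatm reached the count filter in 9 of the 22 divisions and passed the threshold in none. In MSN-like nuclei the UMIs were 12 and 19 in Control and 8 and 4 in CrT-KO, with a log2 fold change of -1.38 (SE 0.52, adjusted p 0.533 by edgeR). In L2/3-like nuclei they were 53 and 55 against 43 and 35 (-0.42, SE 0.24, adjusted p 0.679 by edgeR). Neither passed the threshold.

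Gamt, the methyltransferase that completes synthesis, was barely detected. The Control libraries held 23 and 24 UMIs over all named nuclei and the CrT-KO libraries 23 and 12, or 0.5002 and 0.488 against 0.411 and 0.271 CPM. The log2 fold change was -0.46 (SE 0.35, adjusted p 0.863 by edgeR). In Control, oligodendrocytes again had the highest measured level, with 10 and 10 UMIs in Control and 11 and 7 in CrT-KO (6.19 and 4.56 against 6.53 and 3.99 CPM), which overlapped between genotypes (log2 fold change -0.025, SE 0.47, adjusted p 0.997 by edgeR). Endothelial cells and pericytes had no Gamt UMI in Control, which allows up to 17.5 CPM, and 1 UMI in each CrT-KO library (8.19 and 18.5 CPM), above oligodendrocytes there. Neurons had 0.246 (excitatory) and 0.385 (inhibitory) CPM in Control, an order that turned to 0.248 and 0.174 when the 5 genes were kept among those used for clustering. Astrocytes had no Gamt UMI in any library, which in Control allows up to 5.25 CPM, close to the oligodendrocyte level, so neither astrocytes nor endothelial cells and pericytes can be placed below oligodendrocytes. Gamt reached the count filter in none of the 22 divisions.

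Few nuclei allowed both synthesis enzymes to be read together. Of 20 Control oligodendrocytes with a Gamt UMI (10 per library), 2 in replicate 1 and 5 in replicate 2 also held a Gatm UMI, while 46.3% and 46.1% of all oligodendrocytes in these libraries did. In CrT-KO the counts were 5 of 11 and 3 of 7. Of the Control oligodendrocytes with a Slc6a8 UMI, 13 of 31 and 20 of 40 held one of Gatm. These counts are too small to set apart from the overall share.

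Ckb, the cytosolic creatine kinase, was the most detected of the 5 genes. Over all named nuclei it had 1614 and 1524 UMIs in Control and 1657 and 947 in CrT-KO, or 35.1 and 31.0 against 29.6 and 21.4 CPM. The genotypes did not overlap, but the log2 fold change of -0.33 (SE 0.13) did not pass (p 0.03585, edgeR adjusted p 0.724). Ckb passed with the replicate number as a block (-0.34, edgeR adjusted p 0.0516), where 2.62% of all genes passed, and without CrT-KO replicate 1 (-0.56, adjusted p 0.0626), where 0.212% did. Without CrT-KO replicate 2 the change was -0.13. That library had the lowest Ckb level of the 4 in 6 of 7 populations, endothelial cells and pericytes excepted.

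In excitatory neurons Ckb had 29.6 and 25.3 CPM in Control and 24.0 and 17.5 in CrT-KO (fitted log2 change -0.35, SE 0.13, adjusted p 0.440 by edgeR), and with the replicate block the adjusted p was 0.0168, where 4.73% of all genes passed. Inhibitory neurons had 41.2 and 30.6 against 34.9 and 24.1, which overlapped (-0.24, SE 0.13, adjusted p 0.963 by edgeR). Oligodendrocytes had 55.7 and 72.4 against 57.6 and 43.9 (-0.37, SE 0.18, adjusted p 0.745 by edgeR). With each library left out in turn, the change in inhibitory neurons lay between -0.52 and -0.044, that in excitatory neurons between -0.58 and -0.16 and that in oligodendrocytes between -0.56 and -0.15. The value nearest 0 came without CrT-KO replicate 2 in both neuron classes and without Control replicate 2 in oligodendrocytes. Endothelial cells and pericytes had 142 and 123 against 172 and 185, from 7 to 21 UMIs per library (0.45, SE 0.44, adjusted p 0.994 by edgeR). The fitted change was below 0 in 17 of the 18 divisions in which Ckb reached the filter, with a median of -0.40, and L6b-like nuclei were the exception at 0.13 (SE 0.33). With another random seed of the clustering L6b-like nuclei were at -0.089 and MSN-like nuclei were the exception at 0.18. None passed the threshold, and these fits share the same 4 animals.

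Ckb was highest outside neurons. The Control mean was 128 ± 5.37 CPM in astrocytes and 132 ± 13.3 in endothelial cells and pericytes, which overlapped, then 92.1 ± 12.8 in microglia, 72.3 ± 14.8 in OPCs, 64.1 ± 11.8 in oligodendrocytes, 35.9 ± 7.49 in inhibitory and 27.4 ± 3.03 in excitatory neurons. The mean of endothelial cells and pericytes rests on 22 UMIs. Pericyte-like nuclei gave 5 of them (181 and 33.0 CPM) and endothelial-like nuclei 5 (0 and 151 CPM). The others came from nuclei of this population in no subclass. OPCs and oligodendrocytes overlapped, and both neuron classes lay below every other population. With the 5 genes kept among those used for clustering, inhibitory neurons had a mean of 29.1 and excitatory neurons 27.4. Among neurons MSN-like nuclei had 63.6 and 43.0, above the other subclasses in both libraries, whose means ran from 21.4 in L6b-like to 36.6 in L5/6 NP-like nuclei. LAMP5-like nuclei, of similar depth (median 5561 UMIs against 5154 in MSN-like nuclei), had a Ckb mean of 24.3. With another random seed of the clustering the MSN name held for 438 nuclei only, so this level rests on the clustering used.

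Ckmt1, the ubiquitous mitochondrial creatine kinase, was highest in neurons and passed the test in no population. Over all named nuclei it had 693 and 811 UMIs in Control and 809 and 663 in CrT-KO, or 15.1 and 16.5 against 14.5 and 15.0 CPM (log2 fold change -0.056, SE 0.10, adjusted p 0.948 by edgeR). In excitatory neurons the values were 14.5 and 17.0 against 14.4 and 14.7 (-0.066, SE 0.12, adjusted p 0.919 by edgeR). In inhibitory neurons they were 19.5 and 18.95 against 17.4 and 18.9 (-0.069, SE 0.14, adjusted p 0.996 by edgeR). Of the 22 divisions 13 could be tested for Ckmt1, 10 were fitted below 0 and none passed.

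The Control level of Ckmt1 was 19.2 ± 0.369 CPM in inhibitory and 15.7 ± 1.76 in excitatory neurons, with libraries that did not overlap, against 7.93 ± 2.08 in microglia and 3.29 ± 1.15 in oligodendrocytes. Excitatory and inhibitory neurons together gave 97.9% of its Control UMIs, while they held 68.1% and 24.7% of all Control UMIs. L5 ET-like nuclei, the large layer 5 neurons that project outside the cortex, had the highest mean, 30.5 CPM (24.2 and 36.8), followed by L5/6 NP-like nuclei at 24.4 and LAMP5-like nuclei at 22.3. The lowest mean of a neuron subclass was 7.95 in L6 IT-like nuclei, from 3 and 7 UMIs. Thinned to 500 UMIs, 0.821% and 0.839% of Control excitatory and 1.23% and 1.135% of Control inhibitory neurons held a Ckmt1 UMI against 0.178% and 0.203% of oligodendrocytes. Unthinned, the means were 12.4%, 10.85% and 0.483%.

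**Figure D4:**
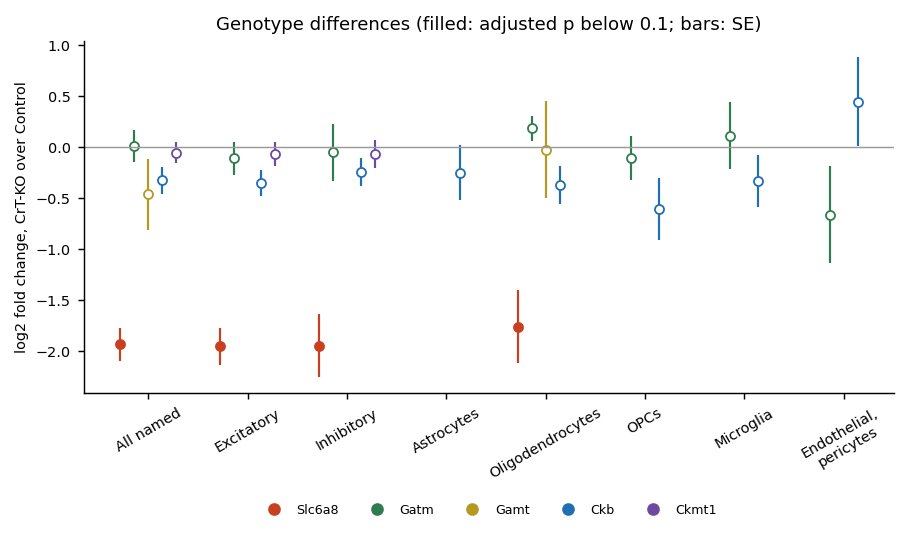
Fitted log2 fold change of each gene (CrT-KO over Control, vertical axis) in all named nuclei and the 7 populations, with bars of 1 SE and filled points where the edgeR adjusted p was below 0.1. Slc6a8 lies between -1.95 and -1.76 and is filled wherever it could be tested, and every other point is open.

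The 5 genes were compared with each other as CPM per kilobase of gene body, since intronic reads were counted. Over all named Control nuclei this level was 11.1 for Ckb, 2.62 for Ckmt1, 1.50 for Gatm, 0.709 for Slc6a8 and 0.173 for Gamt. In oligodendrocytes Gatm led with 28.0, before Ckb with 21.5, Slc6a8 with 2.00, Gamt with 1.88 and Ckmt1 with 0.546. In excitatory neurons the order was Ckb (9.21), Ckmt1 (2.61), Slc6a8 (0.669), Gatm (0.259) and Gamt (0.0861). By this measure oligodendrocytes were above excitatory neurons for Slc6a8, Gatm, Gamt and Ckb, and below them for Ckmt1. Tags near the 3′ end need not grow in number with gene length, so comparisons between genes depend on this scaling. Unscaled, Gatm (2407 Control UMIs) lay above Ckmt1 (1504) over all named nuclei. The order within oligodendrocytes and within excitatory neurons was the same as CPM, but Slc6a8 and Gamt then had 18.7 and 5.37 in oligodendrocytes.

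Other genes were ranked by how closely their Control levels followed each member over the 22 divisions (Pearson r of log2 of CPM plus 1, a description in which all points share the same 2 libraries and differ in depth). Slc6a8 was followed most closely by Cadm4 (r = 0.90), Ptpdc1 (0.897) and S100b (0.89). Gatm was followed by Gab1 (0.94), Frmd8 (0.92) and Dennd5a (0.91), Ckb by Nrf1 (0.94), Crlf3 (0.94) and Son (0.93), and Ckmt1 by Reep2 (0.94), Ccdc30 (0.935) and Tmem169 (0.93). Gamt, with 47 Control UMIs, was below the minimum of 200 UMIs set for this ranking, and the genes nearest to it were D7Ertd443e (0.88), Mog (0.87) and Slc13a1 (0.86). Among the members, Gatm and Ckb had r = 0.69, and Ckmt1 had r = -0.62 with Gatm and -0.65 with Ckb.

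The remaining genes of the pathway were read from 5 lists with 31 genes. Over all named nuclei 29 could be tested, none passed in either direction, and their median log2 fold change was -0.091 beside -0.0066 over all genes. None passed in any of the 7 populations either, where the number tested ran from 8 to 27. Of the 2 other creatine kinases, Ckmt2, the sarcomeric mitochondrial form, had 8.81 and 6.77 CPM in Control and 7.98 and 6.98 in CrT-KO (fitted log2 change -0.0094, SE 0.15), and Ckm, the muscle form, had 4 to 8 UMIs per library. Of 11 tested genes of arginine and glycine supply 7 were fitted below 0, of 9 genes of methyl donor supply and use 6, and of 3 other carriers 1, where 51.6% of all genes were fitted below 0. Oat of the first of these lists was at 0 in all libraries.

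Of the 5 partners of mitochondrial creatine kinase, 4 were fitted below 0, and the pair of ADP/ATP carriers of the inner membrane had the lowest adjusted p of all lists in all named nuclei. Slc25a4 had 21.7 and 21.8 CPM in Control and 17.5 and 16.8 in CrT-KO (fitted log2 change -0.29, SE 0.088, p 0.00873, edgeR adjusted p 0.596). Slc25a5 had 3.70 and 3.68 against 2.50 and 2.44 (-0.53, SE 0.16, p 0.00942, edgeR adjusted p 0.614). The genotypes did not overlap for either gene, but the share of all genes without overlap was not computed. Neither gene passed the threshold.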

How the data were processed

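The deposited matrices hold UMI counts per gene and nucleus. The authors made these counts from sorted nuclei and a 10x Genomics 3′ kit with Cell Ranger 3.1.0 on a GRCm38 (mm10) reference in which the whole gene body is exon, and the submitters' processing notes also name Seurat 3.1.4 and FastQC. Intronic reads therefore entered the counts, long genes gather more UMIs, and whether strand was used is not given in the sources used here.

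No filter beyond 300 genes per nucleus applied. Scrublet, run per library, marked 1213 doublets (3.40%). Counts were scaled to 10000 and clustered in scanpy 1.11.5 (3000 variable genes, 30 components, 20 neighbours, Leiden resolution 1) without the 5 genes reported. Clusters were named from markers if at least 3 were detected, with thresholds set after the matrices were seen. The study's own names were not used here, so values by population may differ from the study for that reason.

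Sums of UMIs for each population in each library were tested with edgeR 4.0.16 (quasi-likelihood, TMM, filterByExpr with a minimum count of 10, Benjamini-Hochberg over all genes tested, threshold 0.1) in R 4.3.3. Levels are CPM, with every UMI of the nuclei in question as the total. Standard errors come from the fold change and F statistic. Depth was 51507483 to 65240843 UMIs per library. Limits from a count of 0 use 3 UMIs and cover counting error only.

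The named genes were the 5 members always, list genes with values where they passed or where a level is described, and the 3 genes most alike. The members, lists and tests were chosen with earlier results of these data known. Alternatives were DESeq2 1.42.0, other scaling, no low-count filter, a replicate block, each library left out, doublets or all nuclei kept, at least 1000 UMIs per nucleus, members kept in clustering, other thinning depths, a threshold of 0.05 and, added after the data were seen, another random seed of the clustering and leaving out those sub-clusters whose leading genes mark a different class. The tests were checked on simulated data.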

Additional observations from a re-analysis of the deposited data

Results flagged for a closer look

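In some divisions both CrT-KO libraries lay on one side of both Control libraries and in others on the opposite side. This was so for Ckmt1, with log2 fold changes of -0.19 in PV-like, -0.26 in L2/3-like, -0.18 in L4/5-like and -0.11 in L5/6 NP-like nuclei, against 0.56 in VIP-like nuclei. It was also so for Gatm, with -1.38 in MSN-like, -0.42 in L2/3-like, -0.38 in L4/5-like and -0.53 in newly formed oligodendrocyte-like nuclei, against 0.63 in L6 CT-like nuclei and 0.19 in the other oligodendrocytes. None of these changes passed the edgeR threshold of 0.1, and the differences between these divisions were not tested. Only divisions in which the gene reached the count filter are listed here. Over all 22 divisions, tested or not, both CrT-KO libraries were lower in 6 and higher in 1 for Ckmt1. For Gatm they were lower in 6 and higher in 4. The genotypes overlapped in 15 for Ckmt1 and in 12 for Gatm. Full separation of 2 against 2 libraries has p = 0.33 by a two-sided exact permutation test. The share of all genes separated in this way was not computed.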

How the results depend on the processing

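Slc6a8 kept its direction in all 52 recomputed values, from -2.32 to -1.56, and stayed past the threshold in all named nuclei and inhibitory neurons under every alternative. In excitatory neurons its call was lost without CrT-KO replicate 1 or 2 (the log2 fold change ranged from -2.06 to -1.83 over the libraries left out), and DESeq2 gave no adjusted p there. In oligodendrocytes it was lost in DESeq2 (-1.78, adjusted p 1.00), with no low-count filter (-1.77, adjusted p 0.871), at a threshold of 0.05 and without Control replicate 2 or CrT-KO replicate 1 (range -2.002 to -1.56). Members called then numbered 0 in these cases. With single libraries left out, the number called ran from 1 to 2 in all named nuclei and from 0 to 1 in excitatory neurons and oligodendrocytes.

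The replicate number as a block raised the number called to 2 in all named nuclei (Ckb -0.34, adjusted p 0.0516) and in excitatory neurons, while 391 and 656 of all genes passed in these fits in place of 3 and 41. The numbers only name the animals in the labels, so same-numbered libraries are not treated as pairs. The log2 CPM difference between replicates 1 and 2 was correlated between the genotypes over the genes tested. This correlation was 0.19 in all named nuclei and 0.020 to 0.16 in the populations, which is weak and positive and does not decide the pairing. Leaving out single libraries moved Ckb from -0.56 to -0.13, Ckmt1 from -0.13 to 0.025 and Gatm from -0.28 to 0.27 in all named nuclei. Gatm there, near 0, also changed sign with library totals (-0.036), with the block (-0.0032), with at least 1000 UMIs per nucleus (-0.025) and without the sub-clusters led by another class (-0.0037, an alternative added after the data were seen), and Gamt in oligodendrocytes with doublets kept (0.060). With 1 library left out, signs also changed for Ckmt1 in excitatory (-0.20 to 0.078) and inhibitory neurons (-0.15 to 0.020), Ckb in microglia (-0.84 to 0.0075), Gamt in oligodendrocytes (-0.39 to 0.26), and Gatm in inhibitory neurons (-0.31 to 0.22), microglia (-0.071 to 0.38), OPCs (-0.32 to 0.15) and endothelial cells and pericytes (-1.53 to 0.13). The cause of these changes was not tested. Over all genes and settings, 284 of 312 values kept direction and call.

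With doublets kept, the Control ratio of oligodendrocytes to excitatory neurons was 2.485 for Slc6a8, that of astrocytes to excitatory neurons 4.31 for Ckb and that of excitatory neurons to oligodendrocytes 3.02 for Ckmt1. The Ckb ratio was 4.11 as a mean per nucleus. The CrT-KO minus Control share with a Slc6a8 UMI was -0.493 percentage points in excitatory and -0.411 in inhibitory neurons at 1000 UMIs, and -3.99, -2.58 and, in oligodendrocytes, -1.97 without thinning. No named cluster was led by mitochondrial genes, so leaving such clusters out gave no other value. Depth limits Gamt everywhere, and Slc6a8 outside neurons and oligodendrocytes. The subclass fits were not repeated with libraries left out.

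A clustering with another random seed was added after the data were seen. It left 5346 nuclei as inhibitory neurons in place of 7459 and 438 as MSN-like in place of 2543, while astrocytes, OPCs and oligodendrocytes kept their nuclei. Slc6a8 passed again in all named nuclei (-1.92, adjusted p 0.0186), excitatory neurons, inhibitory neurons (-1.81, adjusted p 0.0813) and oligodendrocytes, and Gatm in inhibitory neurons changed sign (0.24). In the subclasses signs also changed for Ckb in MSN-like (0.18) and L6b-like nuclei (-0.089) and for Ckmt1 in MSN-like (0.16) and SST-like nuclei (0.022). Among the subclasses Slc6a8 then reached the filter in 8, was fitted below 0 in all 8 and passed in 2, the L2/3-like nuclei (adjusted p 0.00633) and the other oligodendrocytes (adjusted p 0.0525).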

Other observations

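The 2853 nuclei left unnamed had 4.64 and 6.80 CPM of Slc6a8 in Control and 1.199 and 1.16 in CrT-KO. Gatm was at 3.25 and 3.97 against 4.63 and 4.88 CPM in these nuclei, near its level in neurons. Ckb was at 35.95 and 34.6 against 30.7 and 21.9, and Ckmt1 at 10.2 and 15.9 against 11.8 and 11.2.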
